A study of Mus musculus with 12 samples.

Results

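Translation initiation and elongation factors were examined in mouse tumours treated with doxorubicin in a carrier-bound or a free form. The genes were chosen by name: every symbol beginning with Eif or Eef and a digit was taken, apart from the Eif2ak kinases, each read from the probe set (a group of short array probes for a transcript) that carried a single gene symbol and had the highest mean signal over the 12 arrays. This gave 48 of the 12393 genes measured, 38 initiation and 10 elongation factor genes. The rule used no difference between treatments. It also took in genes that carry a factor's name but regulate or modify it, such as Eif4ebp1, Eef2k and the methyltransferase gene Eef2kmt.

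The tumours were C26, a mouse colon carcinoma line from the Balb/c strain, grown under the skin of the flank in Balb/c mice aged 6 weeks. Mice were treated on day 8, when a tumour measured about 50 mm3, and tumours were taken 48 h later. The 4 CP-Dox mice received doxorubicin attached to a chimeric polypeptide carrier, the 4 Dox mice received the free drug, an anthracycline that intercalates into DNA and poisons topoisomerase II, and the 4 PBS mice received the saline control. All 3 groups therefore shared the host strain, the graft and the interval, and each tumour had its own array. No group received the carrier alone, so effects of the carrier and of the drug's delivery cannot be told apart, and the doses are not given in the sources used here. All values are log2 signals, so a difference of 1 is a doubling, and a gene is said to have risen or fallen only at an adjusted p under 0.05 by limma with Benjamini-Hochberg adjustment over all 12393 genes.

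Initiation factors bring the small ribosomal subunit, the initiator tRNA and the mRNA together. In that process eIF4E binds the cap, eIF4G and eIF4A prepare the mRNA, eIF3 bridges mRNA and ribosome, eIF2 carries the initiator tRNA as a GTP-bound complex and eIF1 and eIF1A guard the choice of the start codon. Elongation factor eEF1A then delivers each aminoacyl-tRNA and eEF2 moves the ribosome along the mRNA. Tumour cells often depend on this machinery, and it is controlled mainly at the protein level, by phosphorylation of eIF2, eEF2 and the eIF4E-binding proteins, which RNA arrays do not measure.

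The arrays were similar within the PBS and Dox groups, where an array's mean correlation with the others of its group over all genes was 0.981 to 0.990. CP-Dox replicate 2 stood apart, at 0.948, from CP-Dox replicates 1, 3 and 4, at 0.971 to 0.977. CP-Dox replicates 1 and 3 were high in keratinocyte and skin markers: the mean of 13 measured markers lay 2.52 and 3.88 above the PBS mean in them, and between -0.15 and 0.12 in the other 10 tumours. Mast cell markers lay 1.19 to 1.90 above the PBS mean in CP-Dox tumours, against -0.27 to 1.18 in Dox and -0.49 to 0.30 in PBS tumours, and 8 of 8 rose in CP-Dox against PBS. In the same comparison 3 of 6 endothelial, 2 of 6 neutrophil, 1 of 6 fibroblast and 1 of 8 colon epithelial markers rose, and 0 of 13 skin, 0 of 7 macrophage, 0 of 8 T and natural killer cell and 0 of 14 skeletal muscle markers passed (limma; 8 skin markers higher and 2 macrophage markers lower at an unadjusted p under 0.05). In that comparison 2.35% of all genes rose. The neutrophil markers that rose were S100a8 and Lcn2, while S100a9, Ngp, Camp and Elane did not pass. The colon marker that rose was Cdh1, at 7.03, 5.98, 7.88 and 6.29 in CP-Dox replicates 1 to 4, so highest in the tumours high in skin markers. Of 8 colon epithelial markers, 6 (Epcam, Cdh1, Krt19, Krt20, Cdx2 and Vil1) were among the 40% of genes with the lowest mean signal, while Krt8 and Krt18 were not. No detection calls were used, so a low signal does not show that a marker was absent.

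In CP-Dox tumours the factor genes as a whole sat slightly lower than in PBS tumours, and few differences were large. Of the 48 genes, 2 (4.17%) fell, where 3.23% of all genes fell, and 0 rose, where 2.35% of all genes rose (5.58% of all genes changed in either direction). The 2 were Eif1ax and Eif1b, both in the group for start codon selection and subunit joining. The log2 fold change was below 0 for 36 of 48 factors (75%), against 55.9% of all genes, with a median of -0.14 for the factors and -0.04 for all genes. Without adjustment, 19 of 48 had p under 0.05, 17 lower and 2 higher, which is 39.6% of the factors against 23.5% of all genes. For 9 of 48 factors (18.8%) all CP-Dox tumours lay below all PBS tumours, against 7.75% of all genes, and for 0 of 48 they all lay above, against 4.31%. The 9 include Eif2s3y, whose signal was among the dimmest. Only Eef1e1 had a fold change beyond 0.5 in either direction. Only 4 of the 48 factors lay among the 40% of genes with the lowest mean signal, so all genes are a dimmer reference than the factors. With those dim genes left out, 4 of 44 factors fell (9.09%), against 5.9% of the genes kept, and 0 rose, against 4.2%. The shares at an unadjusted p and of groups apart were not recomputed in this way, and shares below have the same limit. These shares are a description of genes measured on the same tumours, not of independent replicates.

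**Figure D1:**
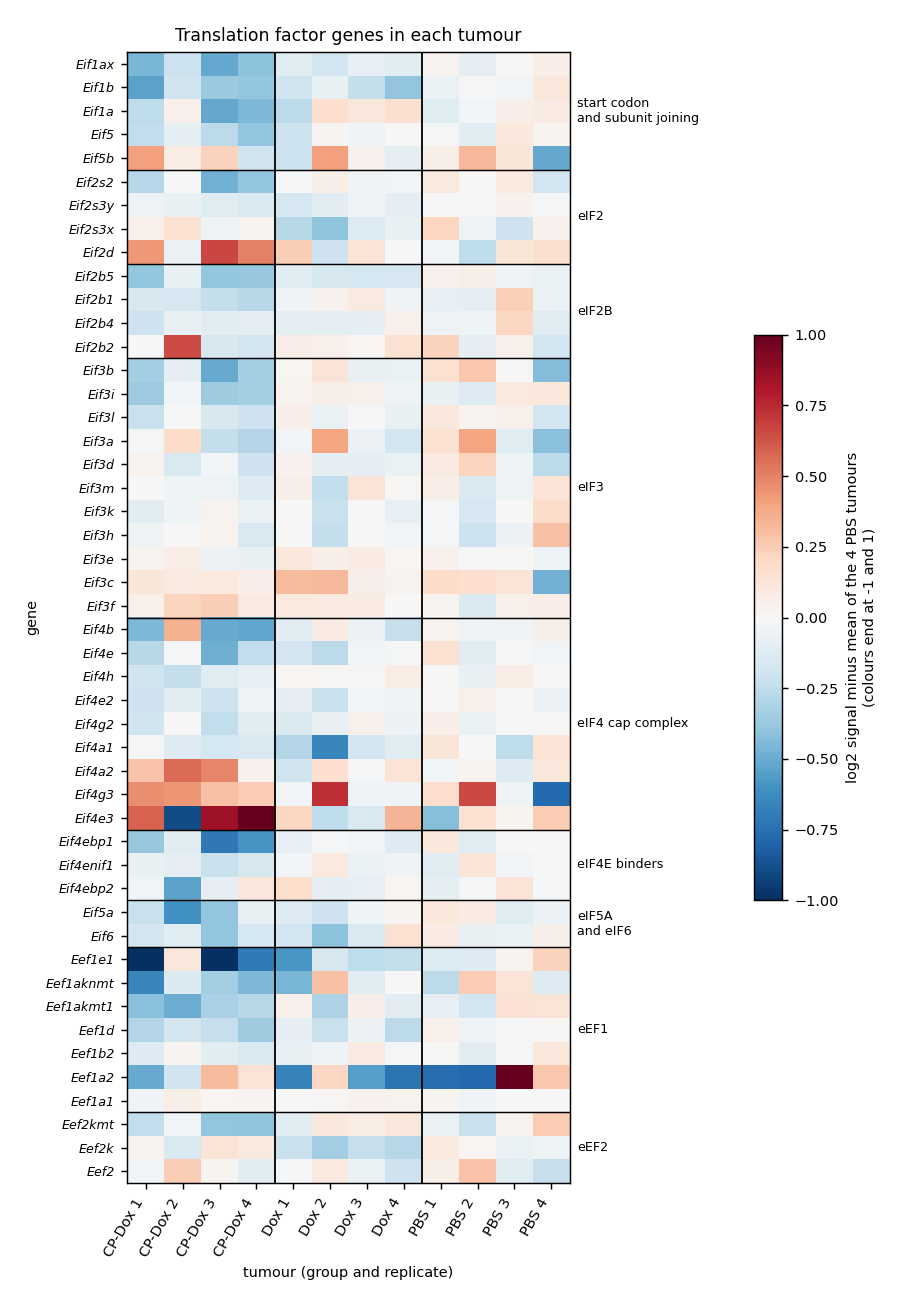
Each row is a factor gene and each column a tumour, grouped as CP-Dox, Dox and PBS, and the colour is the log2 signal minus the mean of the 4 PBS tumours. Blue cells prevail in CP-Dox replicates 1, 3 and 4, whose mean over the 48 genes was -0.14 to -0.15, while CP-Dox replicate 2 was at -0.04.

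The mean over the 48 genes, relative to the PBS tumours, was -0.14, -0.04, -0.15 and -0.15 in CP-Dox replicates 1 to 4. In Dox replicates it was -0.08, -0.04, -0.04 and -0.06, and in PBS replicates 0.00, -0.01, 0.04 and -0.03. CP-Dox replicate 2 thus lay among the Dox tumours, and the other CP-Dox tumours lay below every Dox and PBS tumour. Without CP-Dox replicate 2, a setting chosen after the data were seen, 12 of 48 factors fell (25%, against 9.17% of all genes) and 2 rose, where 9.9% of all genes rose. The genes that fell were Eif1a, Eif1ax, Eif1b, Eif5, Eif2s2, Eif2b5, Eif3i, Eif4b, Eif4e, Eif4ebp1, Eef1d and Eef1e1, and those that rose were Eif2d and Eif4e3. This count comes from the same arrays and is not separate support.

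Start codon selection and subunit joining were represented by 5 genes, of which 2 fell, 0 rose and 3 did not pass the test in CP-Dox against PBS (limma, with 3 lower and 0 higher at an unadjusted p under 0.05). For this and the later role groups, 3.23% of all genes fell and 2.35% rose in that comparison. An unadjusted p under 0.05 was found for 23.5% of all genes. Eif1ax codes for eIF1A, which with eIF1 keeps the scanning ribosome open until it meets a start codon. Its signals were 11.53, 11.77, 11.47 and 11.58 in CP-Dox tumours, 11.86, 11.79, 11.90 and 11.88 in Dox tumours and 12.01, 11.88, 11.98 and 12.05 in PBS tumours. The CP-Dox tumours were the 4 lowest of the 12 and overlapped neither of the other groups, while Dox and PBS tumours overlapped. The log2 fold change of CP-Dox against PBS was -0.40 ± 0.08 (SE; limma adjusted p = 0.0194), which is 0.759 of the PBS level. The second Eif1ax probe set gave -0.73 (limma adjusted p = 0.0484 in a fit over all single-symbol probe sets). In whole tumours, fewer cells that carry a transcript and less of it per cell cannot be told apart.

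Eif1b codes for a close relative of eIF1, whose own gene, Eif1, is not among the factor genes analysed here. It read 9.30, 9.64, 9.47 and 9.46 in CP-Dox tumours, 9.64, 9.76, 9.60 and 9.44 in Dox tumours and 9.77, 9.83, 9.81 and 9.95 in PBS tumours. Every CP-Dox and every Dox tumour lay below every PBS tumour, and the CP-Dox and Dox tumours overlapped. The log2 fold change was -0.37 ± 0.09 in CP-Dox against PBS (SE; limma adjusted p = 0.0417), or 0.772 of the PBS level, and -0.23 ± 0.09 in Dox against PBS (adjusted p = 0.995). Both calls depended on which arrays entered. The Eif1ax call was lost without CP-Dox replicate 1 (adjusted p = 0.0653), CP-Dox replicate 3 (0.0674) or PBS replicate 3 (0.0557), and the Eif1b call was lost on leaving out any of these or CP-Dox replicate 4 or PBS replicates 1, 2 or 4, at adjusted p from 0.0696 to 0.125. Without both CP-Dox tumours high in skin markers, the fold changes were -0.31 for Eif1ax (limma adjusted p = 0.240) and -0.29 for Eif1b (limma adjusted p = 0.346). That setting was chosen after the data were seen and kept only CP-Dox replicates 2 and 4 in their group. It called 2 of all 12393 genes, so few calls of any gene survived it. The part of the skin and mast cell markers in these differences was not tested.

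The promoters of both genes are shown because they belong to the factors that fell. They are the 250 bases before the annotated start, from RefSeq (GRCm38.p6, the C57BL/6J reference, whereas the tumours are Balb/c), at chrX:159371928-159372177 on the plus strand and chr9:120492356-120492605 on the plus strand, with the letters CACGTG in capitals where they occur.
Eif1ax: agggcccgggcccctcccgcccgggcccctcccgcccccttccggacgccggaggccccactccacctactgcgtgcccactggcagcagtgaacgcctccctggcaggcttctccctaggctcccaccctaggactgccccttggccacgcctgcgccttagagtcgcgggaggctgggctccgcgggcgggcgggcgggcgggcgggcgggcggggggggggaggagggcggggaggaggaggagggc
Eif1b: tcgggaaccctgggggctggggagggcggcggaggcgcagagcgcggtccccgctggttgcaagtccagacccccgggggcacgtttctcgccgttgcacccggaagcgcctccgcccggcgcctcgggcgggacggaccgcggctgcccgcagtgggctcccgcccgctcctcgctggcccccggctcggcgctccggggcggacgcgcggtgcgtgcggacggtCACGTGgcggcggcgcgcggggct
Both are rich in G and C, at 78.8% for Eif1ax and 80.4% for Eif1b, with 23 and 42 CpG dinucleotides in the same order. CACGTG, the E-box core recognised by Myc and related factors, occurs in the Eif1b promoter, its first base at position -24 from the start, and not in that of Eif1ax.

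CACGTG reads the same on both strands. It was found in 12 of 52 promoters (23.1%) of the 38 factor genes in the promoter table, which belong to 10 genes, against 6.02% of all 32851 promoters and 7.68% of the 12560 promoters of measured genes. The 10 genes were Eef1aknmt, Eef2, Eef2k, Eif1b, Eif3f, Eif3k, Eif4a1, Eif4e, Eif4h and Eif5a. Their fold changes of CP-Dox against PBS had a median of -0.14, with 7 of 10 below 0, and the 28 factors without the letters had a median of -0.11, with 20 of 28 below 0. All genes had a median of -0.04, with 55.9% below 0. TATAAA, searched on both strands, was in 7.69% of the factor promoters against 8.81% of those of measured genes, and CCAAT, also on both strands, in 23.1% against 34.7%. A match describes the letters in this window only.

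The rest of the start codon and joining group did not pass the test. Eif5, whose product stimulates GTP hydrolysis by eIF2, averaged 11.55 ± 0.127 in CP-Dox, 11.75 ± 0.110 in Dox and 11.80 ± 0.0913 in PBS tumours (SD, n = 4 each). Eif1a, an autosomal relative of Eif1ax, had a log2 fold change of -0.29 ± 0.13 in CP-Dox against PBS (SE; limma adjusted p = 0.219). Eif5b, the GTPase that joins the ribosomal subunits, was the most variable gene of the group. It read 9.38, 9.04, 9.20 and 8.77 in CP-Dox tumours, 8.75, 9.38, 9.01 and 8.87 in Dox tumours and 9.02, 9.30, 9.08 and 8.46 in PBS tumours, with full overlap of the groups and a log2 fold change of 0.13 ± 0.20 (SE; adjusted p = 0.712).

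**Figure D2:**
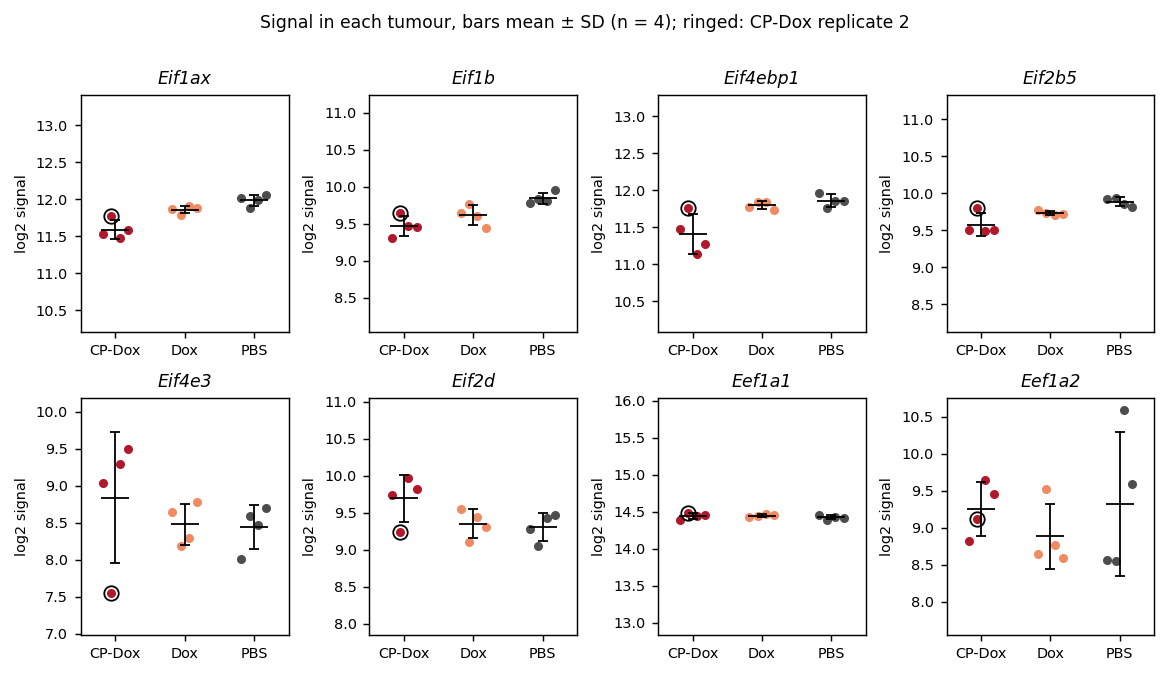
Points are the log2 signals of single tumours for 8 factor genes in CP-Dox, Dox and PBS tumours, with the mean and SD of 4 tumours, and the ring marks CP-Dox replicate 2. Every panel spans the same log2 range. Eif1ax and Eif1b in CP-Dox lie below PBS, Eef1a1 stays between 14.39 and 14.48, and CP-Dox replicate 2 is the lowest tumour for Eif4e3.

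The eIF2 group, which delivers the initiator tRNA, had 4 measured genes and 0 that passed in either direction (limma; 1 lower and 1 higher at an unadjusted p under 0.05). Eif2s2, the beta subunit, read 12.37, 12.66, 12.18 and 12.27 in CP-Dox tumours, 12.64, 12.72, 12.62 and 12.63 in Dox tumours and 12.76, 12.66, 12.75 and 12.46 in PBS tumours. CP-Dox replicates 1, 3 and 4 were the lowest of the 12 tumours and CP-Dox replicate 2 lay among the others. Its log2 fold change was -0.29 ± 0.11 (SE; limma adjusted p = 0.142), and of its 5 further probe sets the brightest 2 gave -0.41 and -0.52 (adjusted p = 0.0483 and 0.0224 in the fit over all single-symbol probe sets). The 3 dimmer ones gave -0.07, -0.26 and -0.07 (adjusted p = 0.681, 0.253 and 0.868). Eif2d, a factor that can load initiator tRNA outside the eIF2 route, was higher in 3 CP-Dox tumours: it read 9.74, 9.24, 9.97 and 9.81 in CP-Dox, 9.55, 9.10, 9.44 and 9.30 in Dox and 9.28, 9.05, 9.43 and 9.47 in PBS tumours. Its fold change of 0.38 ± 0.16 did not pass (SE; adjusted p = 0.178), and its 3 dimmer probe sets, from the brightest down, gave 0.29, 0.17 and -0.08 (lowest adjusted p = 0.268).

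The gamma subunit of eIF2 has an X-linked gene, Eif2s3x, and a Y-linked counterpart, Eif2s3y. Eif2s3x read 11.31, 11.40, 11.21 and 11.29 in CP-Dox tumours, 10.98, 10.85, 11.11 and 11.18 in Dox tumours and 11.47, 11.20, 11.04 and 11.30 in PBS tumours. All CP-Dox tumours lay above all Dox tumours, and PBS tumours overlapped both. The log2 fold change was 0.05 ± 0.11 in CP-Dox against PBS (SE; limma adjusted p = 0.797) and 0.27 ± 0.11 in CP-Dox against Dox (adjusted p = 0.254). Eif2s3y stayed between 3.47 and 3.68 in all 12 tumours and was among the 4 factors in the dimmest 40% of genes, so differences between its values are not interpreted. The alpha subunit gene Eif2s1, which carries the regulatory phosphorylation site, lay on no single-symbol probe set and is not analysed here.

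The guanine nucleotide exchange factor eIF2B, which reloads eIF2 with GTP, had 4 measured subunits, of which 0 passed (limma; 2 lower and 0 higher at an unadjusted p under 0.05). Eif2b5, the catalytic epsilon subunit, read 9.50, 9.81, 9.50 and 9.51 in CP-Dox tumours, 9.78, 9.73, 9.71 and 9.72 in Dox tumours and 9.93, 9.95, 9.85 and 9.82 in PBS tumours. Both treated groups lay wholly below the PBS tumours, and CP-Dox replicates 1, 3 and 4 lay below every other tumour. The log2 fold change was -0.31 ± 0.08 in CP-Dox against PBS (SE; limma adjusted p = 0.0549), -0.16 ± 0.08 in Dox against PBS (adjusted p = 0.995) and -0.15 ± 0.08 in CP-Dox against Dox (adjusted p = 0.391). Eif2b2, the beta subunit, varied most because of CP-Dox replicate 2: it read 10.24, 10.89, 10.08 and 10.05 in CP-Dox tumours, 10.30, 10.29, 10.25 and 10.39 in Dox tumours and 10.47, 10.15, 10.29 and 10.04 in PBS tumours. Its fold change was 0.08 ± 0.17 (SE; adjusted p = 0.796). Eif2b1 and Eif2b4 had fold changes of -0.21 and -0.12, both short of the threshold.

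The eIF3 complex, the large scaffold on the small ribosomal subunit, had 11 measured subunits. None passed in CP-Dox against PBS (limma; 2 lower and 0 higher at an unadjusted p under 0.05), 9 of 11 fold changes were below 0 and their median was -0.06. Of the fold changes of all genes, 55.9% were below 0, with a median of -0.04. Eif3i, a WD-repeat subunit, read 12.23, 12.56, 12.23 and 12.25 in CP-Dox tumours, 12.63, 12.65, 12.64 and 12.55 in Dox tumours and 12.52, 12.46, 12.69 and 12.69 in PBS tumours. CP-Dox replicates 1, 3 and 4 lay below every other tumour and CP-Dox replicate 2 did not, with a log2 fold change of -0.27 ± 0.09 (SE; limma adjusted p = 0.118). Eif3a, the largest subunit, read 11.35, 11.54, 11.12 and 11.06 in CP-Dox tumours, 11.33, 11.75, 11.30 and 11.17 in Dox tumours and 11.51, 11.75, 11.23 and 10.94 in PBS tumours. Its lowest value was that of PBS replicate 4 and its highest, equal to 2 decimals, those of Dox replicate 2 and PBS replicate 2, and the groups overlapped throughout (fold change -0.09 ± 0.18, SE; adjusted p = 0.790). Fold changes of the 11 subunits ran from -0.32 for Eif3b to 0.15 for Eif3f.

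The PBS tumours differed among themselves in these subunits, which was noticed after their values were seen. PBS replicate 4 was the lowest PBS tumour for Eif3a, Eif3b, Eif3c, Eif3d, Eif3e and Eif3l and the highest for the other 5, Eif3f, Eif3h, Eif3i, Eif3k and Eif3m. Eif3b, an RNA-binding scaffold subunit, illustrates it: it read 10.51, 10.75, 10.35 and 10.51 in CP-Dox tumours, 10.87, 10.98, 10.78 and 10.79 in Dox tumours and 11.01, 11.12, 10.87 and 10.42 in PBS tumours. The CP-Dox tumours lay below all Dox tumours and below PBS replicates 1, 2 and 3, and the fold change was -0.32 ± 0.14 against both PBS (SE; limma adjusted p = 0.201) and Dox (adjusted p = 0.300).

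The cap-binding group, eIF4E, eIF4G, eIF4A and their helpers, had 9 measured genes and 0 that passed (limma; 2 lower and 1 higher at an unadjusted p under 0.05). Eif4e, the cap-binding protein itself, read 11.29, 11.55, 11.08 and 11.32 in CP-Dox tumours, 11.38, 11.30, 11.54 and 11.55 in Dox tumours and 11.72, 11.45, 11.56 and 11.54 in PBS tumours. The groups overlapped, through CP-Dox replicate 2 in the case of PBS, and the log2 fold change was -0.26 ± 0.11 (SE; limma adjusted p = 0.184). The further Eif4e probe sets gave -0.33 (limma adjusted p = 0.0618) and -0.32 (0.0846) in the fit over all single-symbol probe sets. The paralogous helicases eIF4A1 and eIF4A2 differed in sign. Eif4a1 read 12.85, 12.74, 12.70 and 12.72 in CP-Dox tumours, 12.58, 12.22, 12.67 and 12.75 in Dox tumours and 12.99, 12.87, 12.62 and 13.00 in PBS tumours, with a fold change of -0.12 ± 0.12 (SE; adjusted p = 0.582). Eif4a2 read 10.83, 11.12, 11.04 and 10.59 in CP-Dox tumours, 10.34, 10.71, 10.52 and 10.68 in Dox tumours and 10.52, 10.58, 10.42 and 10.66 in PBS tumours, with a fold change of 0.35 ± 0.13 (SE; adjusted p = 0.128). CP-Dox replicates 1, 2 and 3 were the highest of the 12 tumours for Eif4a2, and the difference between the paralogs was not tested. The other 2 Eif4a1 probe sets gave -0.08 (adjusted p = 0.793) and, for the dimmer of them, -0.33 (adjusted p = 0.0301) in the fit over all single-symbol probe sets. The other 4 genes with a cap or helper role that lay below PBS were Eif4b, Eif4h, Eif4e2 and Eif4g2, at -0.28 to -0.14, and Eif4g3, a scaffold relative, was at 0.36 ± 0.26 (SE; adjusted p = 0.418). Eif4g1, the main scaffold gene, had no single-symbol probe set and is not analysed here.

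Eif4e3, an atypical cap-binding relative of eIF4E, had the largest positive fold change of the 48 genes, 0.40 ± 0.36 in CP-Dox against PBS (SE; limma adjusted p = 0.511). It read 9.03, 7.55, 9.29 and 9.49 in CP-Dox tumours, 8.65, 8.19, 8.29 and 8.78 in Dox tumours and 8.01, 8.59, 8.47 and 8.69 in PBS tumours. CP-Dox tumours held both the 3 highest values and the lowest, that of replicate 2. Without replicate 2 the fold change was 0.83 ± 0.19 and Eif4e3 rose (adjusted p = 0.0134). The mean of 8 markers of T and natural killer cells, relative to the PBS mean, was 0.87, -1.35, 0.92 and 1.32 in the CP-Dox tumours in the same order, from -0.33 to 0.77 in Dox tumours and from -0.49 to 0.34 in PBS tumours. Ordered by either measure, the 12 tumours came in the same sequence except that PBS replicates 2 and 3 changed places. The pairing was chosen after the values were seen, both measures come from the same arrays, and the part of these cells in the Eif4e3 signal was not tested.

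Of the 3 genes for proteins that bind eIF4E and hold it from eIF4G, 0 passed (limma; 1 lower and 0 higher at an unadjusted p under 0.05). Eif4ebp1, the binding protein released by mTORC1 phosphorylation and a target of the stress factor ATF4, read 11.48, 11.76, 11.14 and 11.27 in CP-Dox tumours, 11.78, 11.84, 11.83 and 11.73 in Dox tumours and 11.97, 11.76, 11.86 and 11.86 in PBS tumours. CP-Dox replicates 1, 3 and 4 were the lowest of the 12 tumours, while CP-Dox replicate 2 lay within the range of the other groups. The log2 fold change was -0.45 ± 0.12 against PBS (SE; limma adjusted p = 0.0504) and -0.38 ± 0.12 against Dox (adjusted p = 0.178). Its other 2 probe sets gave -0.33 (adjusted p = 0.0866) and -0.50 (adjusted p = 0.0243) against PBS in the fit over all single-symbol probe sets. Eif4ebp2 and Eif4enif1 both had fold changes of -0.14.

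Eif5a codes for the hypusine-bearing factor that helps ribosomes through difficult peptide bonds. It read 13.02, 12.64, 12.85 and 13.16 in CP-Dox tumours, 13.12, 13.03, 13.20 and 13.27 in Dox tumours and 13.35, 13.32, 13.12 and 13.18 in PBS tumours. CP-Dox replicates 1, 2 and 3 were the lowest of the 12, and the log2 fold change was -0.33 ± 0.11 (SE; limma adjusted p = 0.120). The other Eif5a probe set gave -0.36 (limma adjusted p = 0.0550 in the fit over all single-symbol probe sets). Eif6, which keeps the large subunit from joining too early, read 11.58, 11.63, 11.37 and 11.58 in CP-Dox tumours, 11.57, 11.35, 11.60 and 11.91 in Dox tumours and 11.84, 11.68, 11.69 and 11.82 in PBS tumours. All CP-Dox tumours lay below all PBS tumours and the fold change was -0.22 ± 0.11, which did not pass (SE; adjusted p = 0.266).

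Among elongation factors, 0 of 10 passed in CP-Dox against PBS (limma; 5 lower and 0 higher at an unadjusted p under 0.05) and 7 of 10 fold changes were below 0. Of all genes, 23.5% had such a p and 55.9% had a fold change below 0. The eEF1 group of 7 genes holds the tRNA-delivering GTPase eEF1A, the exchange subunit genes Eef1b2 and Eef1d, and several partners. Another exchange subunit gene, Eef1g, is not among the 48 genes. Eef1a1, the general form of eEF1A, was the steadiest of the 48 genes. It read 14.39, 14.48, 14.44 and 14.45 in CP-Dox tumours, 14.43, 14.44, 14.47 and 14.46 in Dox tumours and 14.45, 14.39, 14.43 and 14.42 in PBS tumours, and the fold change was 0.02 ± 0.06 (SE; limma adjusted p = 0.894), with a 95% interval of -0.12 to 0.15. Whether its bright probes were near the ceiling of the scanner was not tested.

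Eef1a2 replaces Eef1a1 in adult skeletal muscle and neurons and was the most variable of the 48 genes. It read 8.82, 9.12, 9.64 and 9.46 in CP-Dox tumours, 8.65, 9.53, 8.77 and 8.59 in Dox tumours and 8.56, 8.55, 10.59 and 9.59 in PBS tumours. The groups overlapped fully, with both extremes among PBS tumours, and the fold change was -0.06 ± 0.41 (SE; limma adjusted p = 0.939), with a 95% interval of -0.96 to 0.84. The mean of 14 skeletal muscle markers, relative to the PBS mean, was -0.58 to 1.94 in CP-Dox tumours, 1.67 in Dox replicate 2 and -2.62 to -2.57 in the other Dox tumours, 3.53 and 1.77 in PBS replicates 3 and 4, and -2.62 and -2.68 in PBS replicates 1 and 2. The same 7 tumours were the highest in both measures, namely all CP-Dox tumours, Dox replicate 2 and PBS replicates 3 and 4, and PBS replicate 3 led both. None of the 14 markers passed in CP-Dox against PBS (limma; 0 at an unadjusted p under 0.05), and the part of muscle in the Eef1a2 signal was not tested.

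**Figure D3:**
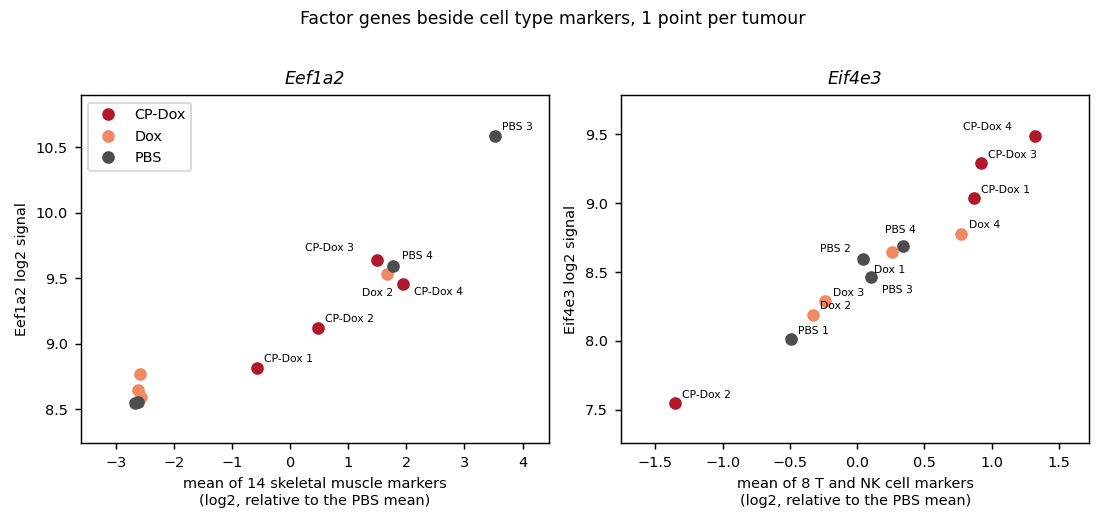
Each point is a tumour, coloured by group. The left panel sets the Eef1a2 log2 signal against the mean of 14 skeletal muscle markers and the right panel sets the Eif4e3 log2 signal against the mean of 8 T and NK cell markers, both means relative to the PBS mean. PBS replicate 3 is highest on both axes at left, and CP-Dox replicate 2 is lowest on both axes at right.

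The promoters of the eEF1A pair are shown because the steadiest and the most variable factor genes are paralogs. From RefSeq (GRCm38.p6), they are the 250 bases before the start at chr9:78481725-78481974 for Eef1a1 and chr2:181157016-181157265 for Eef1a2, both on the minus strand and printed 5′ to 3′ along it, and neither holds any of the 3 motifs searched, so no letters are in capitals.
Eef1a1: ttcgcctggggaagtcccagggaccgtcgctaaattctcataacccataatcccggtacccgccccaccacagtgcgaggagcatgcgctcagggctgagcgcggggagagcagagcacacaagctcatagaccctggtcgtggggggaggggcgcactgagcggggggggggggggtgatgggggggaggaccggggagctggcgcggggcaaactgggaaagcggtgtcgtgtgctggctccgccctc
Eef1a2: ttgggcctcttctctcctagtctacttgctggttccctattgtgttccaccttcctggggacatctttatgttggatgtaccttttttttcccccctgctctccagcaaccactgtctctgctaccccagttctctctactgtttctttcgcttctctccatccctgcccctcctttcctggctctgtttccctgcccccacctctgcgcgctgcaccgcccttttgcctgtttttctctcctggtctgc
The Eef1a1 window has 68.0% G and C and 18 CpG dinucleotides, and the Eef1a2 window has 54.0% and 4. This window is a short stretch, and nothing is drawn from it about control of the genes.

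Eef1d, an exchange subunit that recharges eEF1A with GTP, had the lowest p of its group. It read 12.25, 12.36, 12.31 and 12.19 in CP-Dox tumours, 12.45, 12.31, 12.48 and 12.28 in Dox tumours and 12.59, 12.49, 12.53 and 12.55 in PBS tumours. Both treated groups lay wholly below PBS, with fold changes of -0.27 ± 0.07 for CP-Dox (SE; limma adjusted p = 0.0619) and -0.16 ± 0.07 for Dox (adjusted p = 0.995). The further Eef1d probe sets gave -0.36 (limma adjusted p = 0.0353) and, for the dimmer, -0.75 (0.0575) in CP-Dox against PBS. In Dox against PBS they gave -0.09 and -0.25 in the same order. Both come from the fit over all single-symbol probe sets. Eef1e1, named here after its values were seen, codes for a scaffold protein of the multi-tRNA synthetase complex and had the largest fold change of the 48 genes. It read 10.18, 11.33, 10.17 and 10.51 in CP-Dox tumours, 10.64, 11.06, 10.97 and 10.99 in Dox tumours and 11.08, 11.09, 11.26 and 11.45 in PBS tumours, a difference of -0.67 ± 0.22 (SE; adjusted p = 0.105). CP-Dox replicate 2 was the second highest of the 12 tumours and the other CP-Dox tumours were the 3 lowest, and without replicate 2 the fold change was -0.93 ± 0.14 (adjusted p = 0.00199). With all arrays, and against PBS, the methyltransferase genes Eef1akmt1 and Eef1aknmt were at -0.38 and -0.40 (adjusted p = 0.0674 and 0.184 in that order) and the exchange subunit Eef1b2 at -0.09 (adjusted p = 0.495).

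The eEF2 group holds the translocase and its modifiers, with 0 of 3 passing (limma; 1 lower and 0 higher at an unadjusted p under 0.05). Eef2 read 13.39, 13.67, 13.44 and 13.31 in CP-Dox tumours, 13.41, 13.52, 13.35 and 13.21 in Dox tumours and 13.48, 13.71, 13.30 and 13.19 in PBS tumours, with full overlap and a fold change of 0.03 ± 0.12 (SE; limma adjusted p = 0.887; 95% interval -0.24 to 0.30). Eef2k, the kinase that inhibits eEF2, was low in the Dox tumours: it read 6.53, 6.34, 6.63 and 6.59 in CP-Dox, 6.27, 6.15, 6.27 and 6.21 in Dox and 6.59, 6.51, 6.43 and 6.44 in PBS tumours. The Dox tumours lay below every CP-Dox and every PBS tumour. The fold change was -0.27 ± 0.08 in Dox against PBS (SE; adjusted p = 0.995) and 0.30 ± 0.08 in CP-Dox against Dox (adjusted p = 0.136), and both share the Dox tumours. Eef2kmt, which methylates eEF2, read 6.20, 6.41, 6.05 and 6.04 in CP-Dox tumours, 6.34, 6.54, 6.52 and 6.55 in Dox tumours and 6.38, 6.22, 6.48 and 6.69 in PBS tumours, with a fold change of -0.27 ± 0.12 (SE; adjusted p = 0.201). Eef2k and Eef2kmt are among the 4 dimmest factors.

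**Figure D4:**
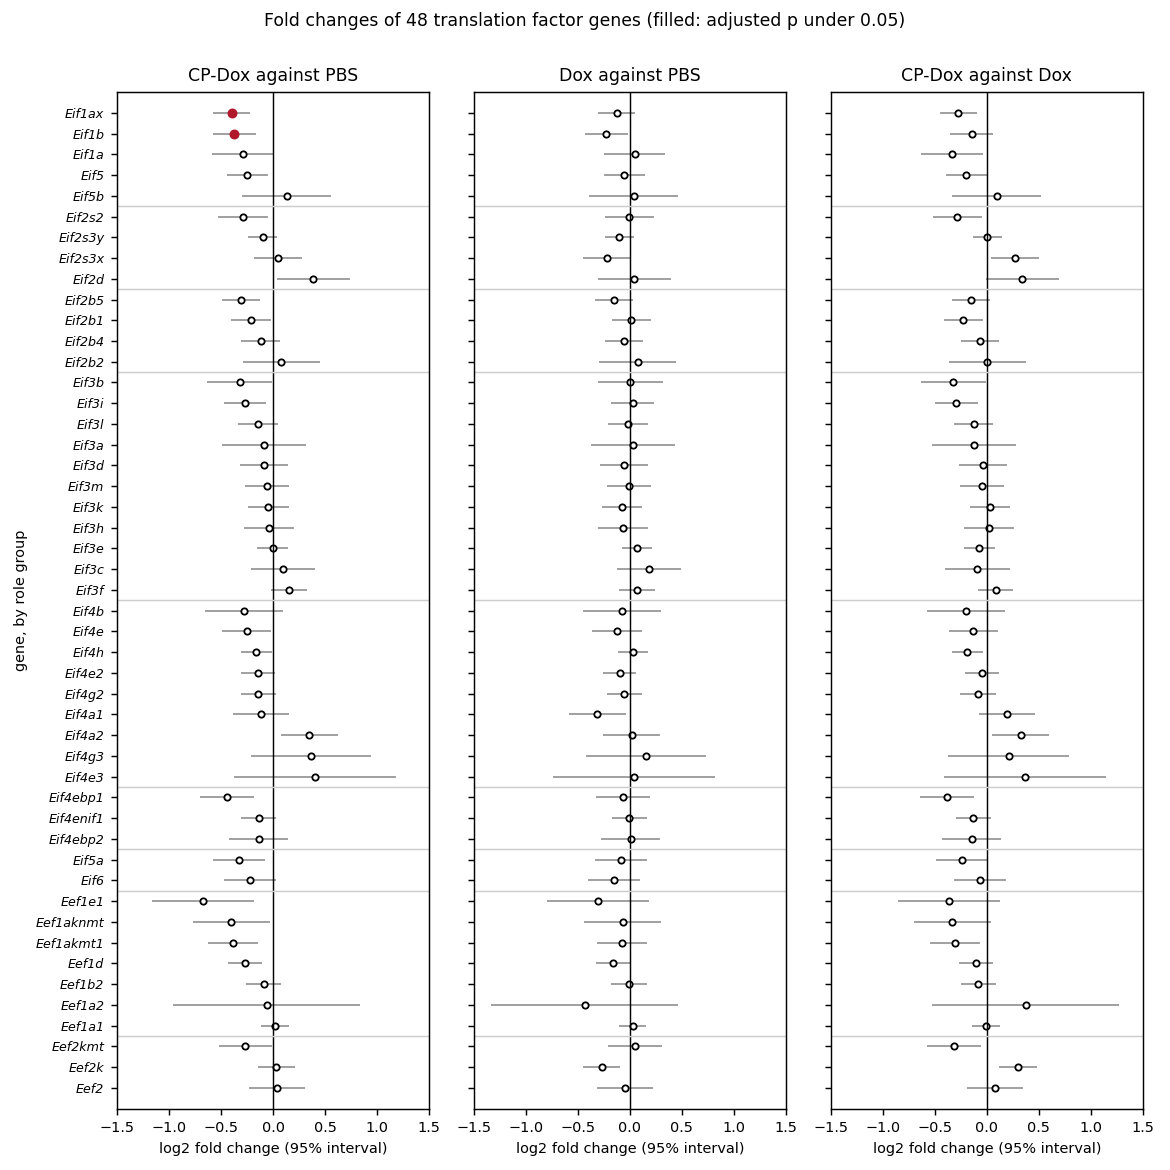
Points are log2 fold changes and lines 95% intervals for the 48 genes, by role group, with a panel for each comparison. Filled points passed an adjusted p under 0.05, which only Eif1ax and Eif1b did, and only in CP-Dox against PBS.

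Free doxorubicin moved no factor gene past the threshold, where 0% of all genes passed (limma; 3 of 48 factors and 558 of 12393 genes had an unadjusted p under 0.05, 6.25% and 4.5%). The 3 were Eif1b, Eef2k and Eif4a1, all lower in Dox. The other Eif4a1 probe sets gave -0.29 and, for the dimmer of them, -0.02 in this comparison. Fold changes of Dox against PBS lay between -0.44 and 0.19, with 30 of 48 below 0 (62.5%, against 48.6% of all genes) and a median of -0.05 against 0.00 for all genes. All Dox tumours lay below all PBS tumours for 6 of 48 factors (12.5%, against 2.13% of all genes) and above them for 0, against 1.71%, so that the background in either direction was 3.84%. The 6 were Eif1b, Eif2b5, Eef1d, Eef1e1, Eef2k and Eif2s3y, which is counted although its differences, at that low signal, are not interpreted. Eif1b, Eif2b5, Eef1d and the dim Eif2s3y also had CP-Dox tumours wholly below the same PBS tumours, which the 2 comparisons share.

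Between the drug forms, 0 of 48 factors passed in CP-Dox against Dox, where 0.226% of all genes passed, 0.0565% rising and 0.169% falling (limma; 10 lower and 3 higher at an unadjusted p under 0.05, 27.1% of factors against 16.1% of all genes). The median log2 fold change was -0.09, against -0.03 for all genes, and 33 of 48 were below 0 (68.8%, against 55.7%). The groups were apart for 7 of 48 factors (14.6%, against 9.63% of all genes), 5 lower, against 6.34%, and 2 higher in CP-Dox, against 3.29%. Eif1ax differed by -0.27 ± 0.08 (SE; adjusted p = 0.164; 95% interval -0.45 to -0.10) and Eif1b by -0.15 ± 0.09 (adjusted p = 0.461; interval -0.35 to 0.06), so that differences of these sizes between the forms were neither called nor excluded. Without CP-Dox replicate 2, 7 factors fell (14.6%, against 4.51% of all genes) and 3 rose, where 4.77% of all genes rose.

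**Figure D5:**
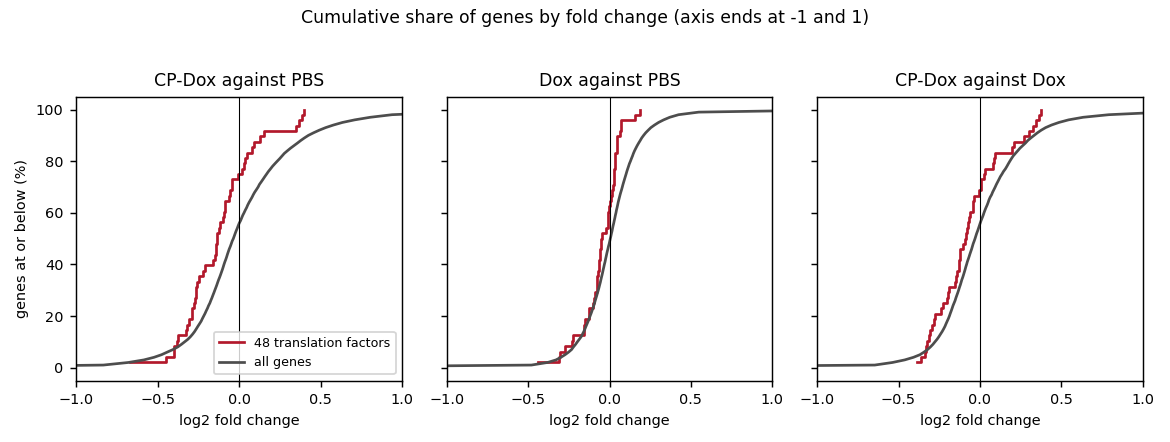
Steps give the percentage of the 48 factor genes, and the grey line that of all genes, at or below each log2 fold change in the 3 comparisons. In CP-Dox against PBS the factor curve lies left of the line for all genes over most of its range, with medians of -0.14 and -0.04.

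Genes around the factors were read from lists chosen with earlier results of these data known. The list for signalling through mTORC1, the kinase complex that frees eIF4E, holds its subunits, regulators and targets and the eIF4E kinases, and had 3 of 16 measured genes higher and 0 lower in CP-Dox against PBS, where 2.35% of all genes rose and 3.23% fell. Sesn2, an mTORC1 inhibitor induced by stress, rose by 0.80 ± 0.16, averaging 8.36 in CP-Dox and 7.56 in PBS tumours (SE; limma adjusted p = 0.0179). Ddit4, another inhibitor, rose by 1.03 ± 0.26 (9.67 in CP-Dox, 8.65 in PBS; adjusted p = 0.0416), and Mknk1, a kinase that phosphorylates eIF4E and is switched on by MAP kinases, rose by 0.42 ± 0.09 (9.07 in CP-Dox, 8.64 in PBS; adjusted p = 0.0249). Of 11 genes for eIF2 kinases, the eIF2 phosphatase and their partners, 2 rose and 0 fell. They were Impact, an inhibitor of the kinase GCN2 (0.57 ± 0.12, 8.63 in CP-Dox and 8.06 in PBS; adjusted p = 0.0194), and Ddit3, the stress factor CHOP (0.56 ± 0.14, 8.28 in CP-Dox and 7.72 in PBS; adjusted p = 0.0383). The kinase gene Eif2ak3 did not pass, at 0.40 ± 0.12 (adjusted p = 0.0799).

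The lists for termination, cap partners and tRNA charging held a few falls and no rises in CP-Dox against PBS, where 3.23% of all genes fell. Of 10 termination and recycling genes 1 fell, Gspt1, the release factor eRF3a, by 0.49 on the log2 scale (10.63 in CP-Dox, 11.12 in PBS; limma adjusted p = 0.0397), while Abce1, which splits ribosomes, was at -0.52 ± 0.18 (SE; adjusted p = 0.112) and Denr at -0.26 (adjusted p = 0.201). Of 9 cap-complex partners and helicases 1 fell, Ncbp2 of the nuclear cap-binding complex, at -0.65 ± 0.11 (8.88 in CP-Dox, 9.53 in PBS; adjusted p = 0.00988), with Ybx1 at -0.26 (adjusted p = 0.0553) and Ncbp1 at -0.32 (adjusted p = 0.101). All 9 fold changes of that list were below 0, as were 55.9% of those of all genes. The list of aminoacyl-tRNA synthetase and scaffold genes holds 40 symbols, since most of its genes appear under an older and a newer name. Of its 20 measured genes 2 fell, Aimp2 and Farsb. Aimp2, a scaffold of the synthetase complex, was at -0.70 ± 0.13 (9.81 in CP-Dox, 10.51 in PBS, limma adjusted p = 0.0109). Farsb, a phenylalanyl-tRNA synthetase subunit, was at -0.50 ± 0.13 (9.90 in CP-Dox, 10.40 in PBS, limma adjusted p = 0.0467). Yars, the tyrosyl-tRNA synthetase, was at -0.39 (adjusted p = 0.0572).

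The enzymes that place hypusine on eIF5A and diphthamide on eEF2 had 1 fall among 7 measured genes in CP-Dox against PBS, where 3.23% of all genes fell. The gene that fell was Dhps, the deoxyhypusine synthase, at -0.45 ± 0.12 (SE), averaging 8.72 in CP-Dox, 9.21 in Dox and 9.17 in PBS tumours (limma adjusted p = 0.0467). Dohh, which completes hypusine, was at -0.26 (adjusted p = 0.133) and the diphthamide gene Dph5 at -0.35 (adjusted p = 0.0619). Of 6 mitochondrial translation factor genes 0 passed, with Mrrf at -0.34, Tufm at -0.24 and Gfm2 at -0.19. At an unadjusted p under 0.05 (limma) 3 of them were lower and 0 higher, where 23.5% of all genes had such a p. Free doxorubicin against saline moved 0 genes of these 7 lists past the threshold, and CP-Dox against Dox also 0. At an unadjusted p under 0.05 (limma) there were 4 and 18 in that order, where 4.5% and 16.1% of all genes had such a p. In the order described, the 7 lists held 16, 11, 10, 9, 20, 7 and 6 measured genes. Without CP-Dox replicate 2, where 9.9% of all genes rose and 9.17% fell, the counts in CP-Dox against PBS became 5 up and 1 down for mTORC1, 3 up and 1 down for the eIF2 kinase list, 0 up and 4 down for termination, for the cap partners and for hypusine and diphthamide, 1 up and 4 down for synthetases, and 0 up and 1 down for mitochondrial factors.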

How the data were processed

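RNA of 12 tumours, 4 per group, was hybridized to Affymetrix mouse arrays, 1 array per tumour, and groups and replicate numbers came from the sample titles, which name separate mice. The deposited values are log2 signals that the authors made with RMA, with Partek also named, per the submitters' processing notes; versions are not given in the sources used here. RMA corrects background, normalizes arrays by quantiles and summarizes probes, and its quantile step would hide a shift of all genes together. Of 22690 probe sets, 64 controls, 691 with several symbols and 1555 with none were left out, and 12393 genes remained. All 48 factors matched the reference by gene ID, 27 had more than 1 probe set, and 4 further symbols on shared probe sets were not used here. Of the kept probe sets, 23 have an ID ending in _a_at, _s_at or _x_at. The ending _a_at marks probes shared by transcripts of the same gene, and the others mark possible cross-hybridization. The kept Eif1ax probe set ends in _a_at, and the setting with unique probe sets replaced it by the second Eif1ax probe set.

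A linear model with a mean per group over all 12 arrays was fitted with limma 3.58.1 (lmFit, eBayes) in R 4.3.3, two-sided, with Benjamini-Hochberg adjustment over 12393 genes. No signal filter was applied. Members, gene lists and marker lists were chosen with earlier results of these data known. Genes named with values were members past the threshold, per role group the member with the lowest p in CP-Dox against PBS and the one with the largest SD over the 12 arrays, a set of 16 fixed factors, of which 14 were measured, and per other list the 3 genes with the lowest p. Outside this rule, and after their values were seen, values are also given for Eif1a, Eif5, Eif2b1, Eif2b4, Eif3b, Eif3f, Eif4b, Eif4e2, Eif4g2, Eif4g3, Eif4h, Eif4ebp2, Eif4enif1, Eef1akmt1, Eef1aknmt, Eef1b2 and Eef1e1. Alternatives were repeated quantile normalization, median centring, leaving out the 40% of genes with the lowest signal, other probe set choices, other variance models, array weights, the compared groups alone, a replicate block, a threshold of 0.01 and leaving out each array. Leaving out both CP-Dox tumours high in skin markers was added after the data were seen. The fit was tested on simulated data with 100 changed genes per size. The noise was normal and independent, with 1 SD per gene pooled over the groups. There the fit recovered 37% of log2 changes of 0.5 and 78% of changes of 1 in CP-Dox against PBS. Recovery was 39% and 75% in Dox against PBS, and 28% and 70% in CP-Dox against Dox. It also called 3, 10 and 7 unchanged genes in the same order. The simulation held no outlying tumour and no wider CP-Dox group, so its comparisons differ only by random draw and recovery in these tumours may differ. The number of arrays limits the precision, and the median SE of a fold change was 0.13. Promoters were searched and figures drawn with Python 3.11.15 and matplotlib 3.10.9.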

Additional observations from a re-analysis of the deposited data

Results flagged for a closer look

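Of 102 groups of 4 tumours examined (24 named factors and 10 means, those of all 48 factors and of the 9 role groups, in each of the 3 treatments), 7 held a tumour far from the other 3, with a gap to its neighbour that took a larger part of the group's range than Dixon's 95% critical value. Chance flags about 1 in 20 groups. In CP-Dox tumours, replicate 2 was the high tumour for Eif2b5, at 9.81 against 9.50 to 9.51 in the others (gap 0.962 of the range), for Eif3i, at 12.56 against 12.23 to 12.25 (0.929), for the mean of the eIF2B genes, at 0.08 against -0.23 to -0.19 (0.854), and for the mean of all 48 factors, at -0.04 against -0.15 to -0.14 (0.886). CP-Dox replicate 1 was the high tumour for the mean of the eIF2 genes, at 0.0377 against 0.0019 to 0.0049 (0.916). In Dox tumours, replicate 1 was low for Eef2kmt, at 6.34 against 6.52 to 6.55 (0.833), and replicate 4 was high for the mean of the eIF2B genes, at -0.0007 against -0.0424 to -0.0396 (0.933). Means are relative to the PBS tumours.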

How the results depend on the processing

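In CP-Dox against PBS, 2 factors fell and 0 rose in the main fit. Falls are given here with their share of the factors against the share of all genes that fell. There were 4 with repeated quantile normalization (8.33% against 3.61%), 4 with the dim filter (9.09% against 5.9%) and 4 with a trended robust variance (8.33% against 3.1%). Median centring gave 6 (12.5% against 4.06%), the mean of probe sets 5 (10.4% against 3.53%) and unique probe sets 1 (2.78% against 2.93%). Array weights gave 13 (27.1% against 11%), with 2 rises, where 10.5% of all genes rose. There were 0 falls with the compared groups alone (against 0.912%), at a threshold of 0.01 (0.75%) or without the 2 tumours high in skin markers (0.0161%). The count of falls ran from 0 to 12 on leaving out single arrays, where 1.14% to 9.17% of all genes fell. Rises ran from 0 to 2, where 0.589% to 9.9% of all genes rose. All genes called, 691, became 2665 with array weights, 198 with the compared groups alone, 143 at 0.01, 2 without the skin-high tumours, and 214 to 2363 on leaving out single arrays. In Dox against PBS, 2 genes were called after repeated quantile normalization and 2 with the compared groups alone. In CP-Dox against Dox, the 28 genes became 46 with repeated quantile normalization and 47 with the dim filter. Array weights gave 1960, with 3 factors up and 10 down, where 6.97% of all genes rose and 8.84% fell. The count was 1 at 0.01 and 0 with unique probe sets, with the compared groups alone and without the skin-high tumours. It ran from 1 to 1150 on leaving out single arrays, with 0 to 3 factors up and 0 to 7 down. The upper ends came without CP-Dox replicate 2, where 4.77% of all genes rose and 4.51% fell. The factor median in CP-Dox against PBS moved to -0.19 with median centring, and in CP-Dox against Dox to -0.14 with median centring and -0.13 with unique probe sets, with a range of -0.13 to -0.069 on leaving out single arrays. With the replicate number as a block, 5 factors fell and 1 rose in CP-Dox against PBS, where 4.43% of all genes fell and 3.6% rose. That setting called 995 genes in CP-Dox against PBS and 8 in CP-Dox against Dox. In deviations from group means, same-numbered tumours correlated at -0.31 to 0.51 (8 of 12 pairs over 0.1) and differently numbered ones at -0.46 to 0.46. The titles name separate mice, so the numbers were not taken as pairs. Whether same-numbered tumours share anything else was not tested. The cause of the shifts between settings was not tested. Dim and unique-probe-set runs held 44 and 36 factors. Eif1ax passed neither with unique probe sets (adjusted p = 0.0519) nor with the compared groups alone (0.0793), and Eif1b did not with the compared groups alone (0.0974). No fold change of a called factor changed sign under any of these settings, and of the values for single named factors 1260 kept their side of the threshold, 46 passed only under an alternative and 17 lost the call.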
